A study of Mus musculus with 16 samples.

Results

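Gpr56, Meis1, Gata2 and Nkx2-3 are 4 genes of the blood stem cell that lie under 4 of the 5 longest H3K4me3 regions of mouse hematopoietic stem cells. They were chosen by that length, measured in these libraries, so the length of H3K4me3 at each gene is given below as a description and is not tested as a finding. Each gene was followed in 1 window of the mouse build mm9: Gpr56 in chr8:97490000-97545000 (55 kb), Meis1 in chr11:18770000-18930000 (160 kb), Gata2 in chr6:88130000-88165000 (35 kb) and Nkx2-3 in chr19:43670000-43705000 (35 kb). The members are all peaks and islands of the 16 libraries that touch these windows, 272 of 610361 in all. Of these, 76 were H3K4me3 peaks (of 71170), 196 were H3K36me3 peaks (of 324058) and 0 were H3K27me3 islands (of 215133).

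The cells were bone marrow stem cells of C57BL/6 mice, wild type per the series' design text, sorted with the SP-KSL-CD150+ gate, which combines dye efflux with surface markers. They came from mice of 4 months (young) or 24 months (old), and chromatin immunoprecipitation with sequencing (ChIP-seq) was done with an antibody to 1 histone methylation per library. H3K4me3 was mapped in 2 young (replicates 7 and 8) and 2 old libraries (7 and 8), H3K27me3 in 3 young and 3 old libraries (1 to 3) and H3K36me3 in 3 young and 3 old libraries (4 to 6). Each library is labelled as technical, under the number of a biological replicate, with no word on which libraries share animals, so spreads and p-values measure differences between these samples, which may be technical. In such bulk samples, fewer cells that carry a mark and less of the mark per cell cannot be told apart. Genes that mark the sorted cells or other blood cells were not analysed here.

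H3K4me3 is written around the start sites of active genes, and unusually long stretches of it are known from genes that define a cell's identity. H3K27me3 is the mark of Polycomb repression, and H3K36me3 is laid down along gene bodies by an enzyme that travels with elongating RNA polymerase. Gpr56 (current symbol Adgrg1) is an adhesion G protein-coupled receptor of stem cells. Meis1 is a homeodomain protein of the TALE class that binds DNA together with Hox proteins, Gata2 is a zinc finger factor that blood stem cells need for their formation and upkeep, and Nkx2-3 is a homeodomain factor of the NK2 family.

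The promoters of the 4 genes are shown because their H3K4me3 domains are of one kind by length but their promoters differ in CG content, the sequence feature that is best known to go with this mark. They were taken from RefSeq on build GRCm38.p6 and hold 300 bases, 250 before and 50 after an annotated start. Their positions are therefore not on the build of the peaks and were not converted. All 4 genes matched, 3 of them by their current symbol and Gpr56 as Adgrg1. Gpr56 and Gata2 each have 2 promoters in the table, and for each gene the promoter with the most CG is printed, 5′ to 3′ on the gene's strand, with each CG dinucleotide in capitals. The Gpr56 promoter lies at chr8:94976859-94977158 on the plus strand, that of Meis1 at chr11:19018920-19019219 on the minus strand, that of Gata2 at chr6:88193641-88193940 on the plus strand and that of Nkx2-3 at chr19:43612075-43612374 on the plus strand.
Gpr56 promoter: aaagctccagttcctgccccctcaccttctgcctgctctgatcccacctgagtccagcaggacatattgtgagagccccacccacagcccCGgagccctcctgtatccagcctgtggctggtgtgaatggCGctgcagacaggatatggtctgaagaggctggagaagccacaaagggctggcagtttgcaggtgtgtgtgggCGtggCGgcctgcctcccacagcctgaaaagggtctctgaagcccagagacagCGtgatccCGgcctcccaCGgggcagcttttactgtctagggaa
Meis1 promoter: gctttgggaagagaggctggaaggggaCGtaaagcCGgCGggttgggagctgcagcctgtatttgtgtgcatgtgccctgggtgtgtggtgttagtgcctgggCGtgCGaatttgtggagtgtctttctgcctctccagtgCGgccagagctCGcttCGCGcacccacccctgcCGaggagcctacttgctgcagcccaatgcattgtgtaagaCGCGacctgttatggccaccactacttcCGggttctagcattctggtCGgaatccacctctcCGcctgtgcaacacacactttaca
Gata2 promoter: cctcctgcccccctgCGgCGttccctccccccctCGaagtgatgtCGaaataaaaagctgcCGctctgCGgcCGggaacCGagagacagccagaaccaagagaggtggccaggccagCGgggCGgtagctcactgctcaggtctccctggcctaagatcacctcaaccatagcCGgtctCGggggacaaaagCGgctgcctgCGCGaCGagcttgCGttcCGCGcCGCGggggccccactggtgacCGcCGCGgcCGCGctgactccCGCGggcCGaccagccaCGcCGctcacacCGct
Nkx2-3 promoter: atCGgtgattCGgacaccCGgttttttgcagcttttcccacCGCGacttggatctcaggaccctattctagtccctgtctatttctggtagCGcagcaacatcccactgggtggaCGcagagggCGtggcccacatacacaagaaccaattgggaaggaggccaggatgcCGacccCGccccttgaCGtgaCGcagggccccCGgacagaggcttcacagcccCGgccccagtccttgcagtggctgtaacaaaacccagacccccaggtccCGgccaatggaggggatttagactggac

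CG density differed widely between the 4 genes. The printed Gata2 promoter held 32 CG dinucleotides and the other Gata2 promoter 29, more than 90.5% and 87.1% of the 32851 promoters in the table. Meis1 and Nkx2-3 held 15 each, above 65.4% of promoters. Gpr56, which has the longest domain of the 4, held 7 in the printed promoter and 6 in the other, and the median of all promoters was 7 (range 0 to 67). The share of C and G bases spread less, at 60.7% in both Gpr56 promoters, 58.3% in Meis1, 69.3% and 73.7% in Gata2 and 60% in Nkx2-3, beside a median of 52.7%.

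**Figure D1:**
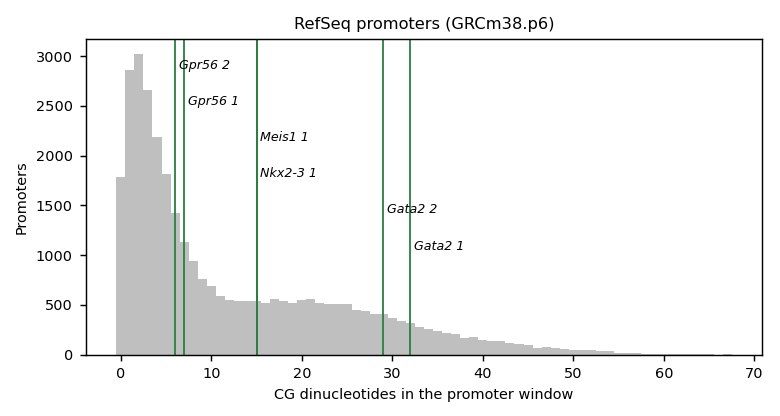
Number of CG dinucleotides (x axis) in the 300 base promoters of RefSeq build GRCm38.p6, with the number of promoters on the y axis. Vertical lines mark the 6 promoters of the 4 genes, of which those of Gpr56 lie at 6 and 7, Meis1 and Nkx2-3 at 15, and Gata2 at 29 and 32.

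The windows of all 6 promoters, printed or not, were searched on both strands for short core motifs of factor families of blood stem cells. The core searched for factors of the GATA family was AGATAA, that for Meis and other TALE factors was TGACAG, that for the ETS family was CCGGAAG, that for the Runx family was TGTGGT, and that for factors of the Nkx2 family was CACTTNA. The GATA and TALE cores can share bases, since the letters that end one begin the other. Of the 6 promoters, the Meis1 promoter alone held any of them. It had 1 match each of the Runx and Nkx2 cores on the gene's strand and 1 of the ETS core on the other strand, at separate places. Of all promoters in the table, 11.2% held the GATA core, 19.2% the TALE core, 8.86% the ETS core, 16.8% the Runx core and 11.5% the Nkx2 core. A match describes letters in these windows only.

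Peaks of the 4 H3K4me3 libraries were merged where they shared a base or abutted, and the longest merged region in each window is called the domain of the gene. Of 20660 merged regions, ordered by the length under peaks averaged over the 4 libraries, the Gpr56 domain ranked 1, Meis1 3, Gata2 4 and Nkx2-3 5. Rank 2, at chr6:52169644-52185438, is in none of the windows and had a mean of 15538 bp. Just outside the members, ranks 6, 7 and 8 had means of 10259, 9811 and 9732 bp, beside 11204 bp for Nkx2-3. By this length the order was close to the same in every library. Gpr56 ranked 1 and Meis1 3 in all 4. Gata2 ranked 4 in 3 libraries and 6 in young replicate 8, and Nkx2-3 ranked 5 in 3 libraries and 4 in young replicate 8. By the longest single peak of the domain, among the peaks of each list, the order varied more. Over young replicates 7 and 8 and then old replicates 7 and 8, Gpr56 ranked 3, 2, 2 and 1. Meis1 ranked 2, 1, 1 and 3, Gata2 4, 4, 3 and 4, and Nkx2-3 10, 3, 7 and 5.

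**Figure D2:**
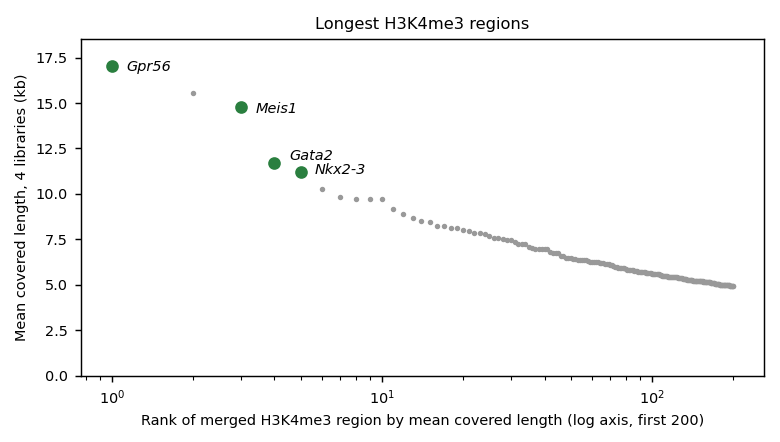
Mean length under H3K4me3 peaks over the 4 libraries (y axis, kb) of the 200 longest merged regions, by rank on a log axis. The domains of Gpr56, Meis1, Gata2 and Nkx2-3 are marked at ranks 1, 3, 4 and 5, and the curve flattens below them.

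The Gpr56 domain spanned chr8:97499884-97518766 (18883 bp). Peaks covered 17092 bp of it in young replicate 7 and 16520 bp in young replicate 8, and 16163 bp and 18434 bp in old replicates 7 and 8. The old libraries thus hold both the lowest and the highest value, with the young ones between (young 16806 ± 404 bp, old 17299 ± 1606 bp, SD, n = 2 each). This domain was also the most broken of the 4. It consisted of 4 and 3 peaks in the young libraries and 7 and 3 in the old ones, with a longest single peak of 13672, 13485, 12703 and 17046 bp. In young replicates 7 and 8 and old replicate 7 the longest peak ended short of the higher-coordinate edge and shorter peaks continued the domain, while in old replicate 8 a single peak ran across most of it. Its lower-coordinate edge lay within 219 bp over the libraries and its other edge within 1731 bp.

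The Meis1 domain, chr11:18906952-18922156 (15205 bp), was 1 unbroken peak in every library. Its length was 15065 and 14399 bp in the young libraries and 14723 and 14876 bp in the old ones, so the old values lie inside the young range. All 4 libraries shared 14399 bp, or 94.7% of the domain, the highest share of the 4 genes. Both edges stayed within 636 bp over the libraries.

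The Gata2 domain, chr6:88141902-88155121 (13220 bp), covered 11677 and 10046 bp in the young libraries and 12155 and 13014 bp in the old ones. The groups did not overlap (young 10862 ± 1153 bp, old 12585 ± 607 bp, SD, n = 2 each), and both edges lay further out in each old library than in each young one. Measured inward from the lower-coordinate end of the merged region, the peak began at 811 and 1448 bp in the young and 671 and 0 bp in the old libraries. Measured inward from the other end it stopped at 732 and 1726 bp in the young and 0 and 206 bp in the old libraries. Both old libraries, and neither young one, covered 366 bp of the domain. In old replicate 7 the added length was made of separate short, low-scoring peaks, since the domain held 3 peaks there and 1 in each other library. The longest peak alone had 11286 bp in that library, less than the 11677 bp of young replicate 7, so the separation of the groups rests on those short peaks. Within title number 18, which young replicate 7 and old replicate 7 share and the labels do not explain, the old library was longer, with 12155 beside 11677 bp.

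The Nkx2-3 domain, chr19:43680437-43691998 (11562 bp), covered 11236 and 11414 bp in the young and 11059 and 11106 bp in the old libraries. The old values were both lower, by 242.5 bp in the mean, and 10592 bp (91.6%) were shared by all 4 libraries. It was split into 2 peaks in young replicate 7 and old replicate 7 and was a single peak in the other libraries.

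In every library the longest peak of each domain had a score of 3100, a value at which the authors' scores pile up, since 47.7 to 59.7% of the H3K4me3 peaks of a list stood at or above it. Scores therefore do not rank these peaks. Only the short peaks at the ends of the Gpr56 and Gata2 domains scored lower. The lowest in the Gpr56 domain was 210.45 and 821.74 in the young and 138.75 and 137.96 in the old libraries, and 142.57 in the Gata2 domain of old replicate 7.

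The H3K4me3 lists did not change in length past the threshold at any gene. Old and young were compared with limma on log2(bp covered + 200) over all 17307 merged regions covered in at least 2 libraries. After Benjamini-Hochberg adjustment 0 regions passed 0.05 (0% called), while 1253 had an unadjusted p under 0.05, 1046 of them longer in old. That lean did not hold without old replicate 8 (190 of 818 longer in old) or with only peaks at or above the median score of their list (244 of 492). With any 1 of the 4 libraries left out, 16 to 94 regions were called, and none of them lay in a window. On that scale the Gata2 domain differed by 0.21 (SE 0.16, adjusted p = 0.979), the Gpr56 domain by 0.04 (SE 0.21), the Meis1 domain by 0.01 (SE 0.17) and the Nkx2-3 domain by -0.03 (SE 0.13), the last 3 with an adjusted p of 1.00. The non-overlap of the Gata2 values has a large background: each old library exceeded each young one in 12.6% of the 14489 regions held by all 4 libraries, and each was shorter, as at Nkx2-3, in 16.2%. Among the other 96 of the 100 longest such regions, 28 were longer in both old libraries and 7 were shorter. With 2 against 2 libraries no exact test of 1 value can go below 0.333.

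Smaller H3K4me3 peaks accompanied each domain. Summed over the Gpr56 window, H3K4me3 covered 18899 and 16520 bp in the young and 17879 and 22633 bp in the old libraries. Over the Meis1 window it covered 25060 and 23876 bp in the young and 24892 and 27500 bp in the old ones. In the Gata2 window the values were 12530 and 11023 bp in the young and 12835 and 14482 bp in the old libraries, again without overlap. In the Nkx2-3 window they were 13853 and 13516 bp in the young and 12474 and 12200 bp in the old libraries, again without overlap but with the old ones lower. Old minus young came to 2546.5 bp for Gpr56, 1728 bp for Meis1, 1882 bp for Gata2 and -1347.5 bp for Nkx2-3. Inside the domains alone it came to 492.5, 67.5, 1723 and -242.5 bp, so most of the difference lay outside the domain at Gpr56, Meis1 and Nkx2-3 and inside it at Gata2. Without old replicate 8 the whole-window differences were 169.5 bp for Gpr56, 424 bp for Meis1, 1058.5 bp for Gata2 and -1210.5 bp for Nkx2-3. Without old replicate 7 they were 4923.5 bp for Gpr56 and 3032 bp for Meis1, and without young replicate 8 they were 1357, 1136 and 1128.5 bp for Gpr56, Meis1 and Gata2. Within title number 18 the same differences were -1020, -168, 305 and -1379 bp, so those of Gpr56 and Meis1 had the other sign there. Old replicate 8 had the longest H3K4me3 list of the 4 (32.5 Mb, beside 26.9 to 29.6 Mb) and the most H3K4me3 in the Gpr56, Meis1 and Gata2 windows. Scaled to the same total covered length in each library, Gata2 had 12304 and 11890 bp in the young and 13721 and 12941 bp in the old libraries. Scaled in that way, Nkx2-3 had 13603 and 14579 bp in the young and 13335 and 10902 bp in the old libraries, so neither gene's groups came to overlap. With only peaks at or above the median score of their list, the groups at Gata2 did overlap, with 11677 and 10046 bp in the young and 11286 and 13014 bp in the old libraries.

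Beyond the Gpr56 domain, 3 small regions on its higher-coordinate side were held by 2 or 3 libraries each. The region chr8:97519686-97520854 was covered over 1116 and 0 bp in the young and 428 and 573 bp in the old libraries. The region chr8:97521256-97522820 was listed in old libraries only, with 0 and 0 bp in the young and 426 and 1565 bp in the old ones (limma, adjusted p = 0.352). Its peak in old replicate 7 scored 82.18, below the lowest score of either young list (82.9 and 91.91), and its peak in old replicate 8 scored 348.25. The region chr8:97522987-97523851 had 691 and 0 bp in the young and 455 and 0 bp in the old ones. Young replicate 8 held none of these 3. Another 4 regions of 407 to 822 bp in the Gpr56 window were each held by 1 old library and no young one. The same held in the Meis1 window for chr11:18906179-18906790 and chr11:18929571-18930449, and in the Gata2 window for chr6:88141112-88141673. The old H3K4me3 lists held more peaks in all (18675 and 19923, beside 16314 and 16258 in the young). The share of regions held by old libraries only, by 1 or by 2 of them, was not counted over all merged regions. The 4 regions at Gpr56 and chr8:97521256-97522820 are therefore not read as a change there.

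The Meis1 window held 2 further H3K4me3 regions at its lower-coordinate end, far from the domain, and both were present in every library. The first, chr11:18769668-18773234, covered 2962 and 2830 bp in the young and 2922 and 3489 bp in the old libraries (limma log2 difference 0.13, SE 0.11, adjusted p = 0.979), counting bases outside the window too. The second, chr11:18773690-18779460, covered 4170 and 4831 bp in the young and 4802 and 5771 bp in the old ones (log2 difference 0.22, SE 0.13, adjusted p = 0.979). In both, old replicate 8 was highest. On the other side, chr11:18925741-18928088, 3584 bp from the domain, covered 2259 and 1867 bp in the young and 1812 and 2167 bp in the old libraries. Nearly touching the domain, at 120 bp from it, chr11:18922277-18923020 was listed over 604 and 0 bp in the young and 633 and 488 bp in the old ones.

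Gata2 had 1 satellite in all libraries, chr6:88139224-88140257 at 1644 bp from the domain, with 853 and 977 bp in the young and 680 and 906 bp in the old libraries. Nkx2-3 had 2 on its lower-coordinate side. The outer one, chr19:43673470-43674975, covered 1506 and 907 bp in the young and 512 and 1094 bp in the old libraries (log2 difference -0.52, SE 0.40, adjusted p = 0.979). The inner one, chr19:43675114-43676318, covered 1111 and 1195 bp in the young and 903 and 0 bp in the old ones (log2 difference -1.53, SE 0.85, adjusted p = 0.977). These 2 regions hold most of the lower H3K4me3 length of the old libraries in the Nkx2-3 window, since the domain itself differed by -242.5 bp of the -1347.5 bp.

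**Figure D3:**
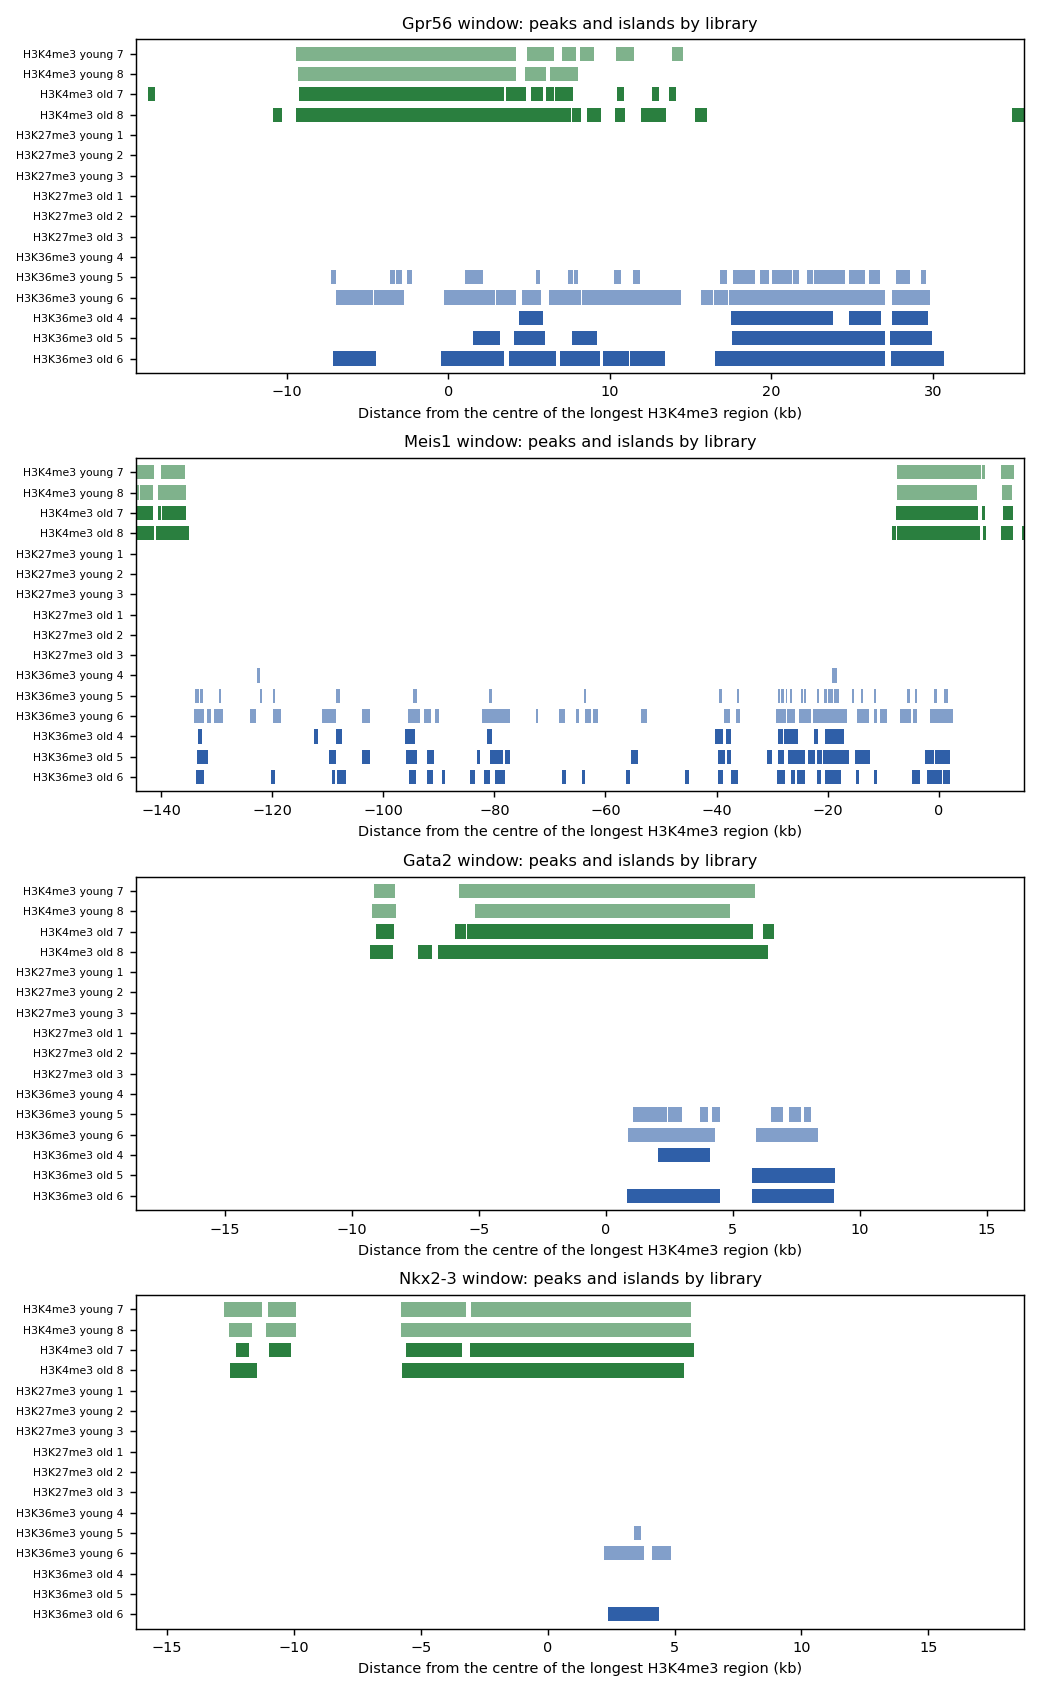
Peaks and islands in the 4 windows, 1 row per library, against the distance from the centre of the H3K4me3 domain (x axis, kb), with lower coordinates on the left. H3K4me3 is green and H3K36me3 blue, lighter for young and darker for old, and the H3K27me3 rows are empty in all windows.

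No H3K27me3 island touched any of the 4 windows in any library. The length under H3K27me3 was 0 bp in each of the 3 young and 3 old libraries at Gpr56, Meis1, Gata2 and Nkx2-3. Signal below the authors' calling threshold would not be listed, so these zeros describe called islands. Of the 14489 H3K4me3 regions held by all 4 libraries, 80.7% were likewise touched by H3K27me3 in no library, and among the other 96 longest the share was 90.6% (87 regions). The absence is therefore shared with most H3K4me3 regions. Over all regions of this mark, limma called 0 of 30998 (0% called), with 1368 at an unadjusted p under 0.05, of which 1178 were longer in old, and none of the tested regions lies in a window. Without old replicate 2 the count of calls was 2766. The lean at unadjusted p turned without young replicate 1 (1378 of 2889 longer in old) and without young replicate 2 (1162 of 3122).

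The nearest islands lay far from the domains, at distances that differed between libraries. From the Gpr56 domain the nearest island was 966, 142 and 80.3 kb away in young replicates 1 to 3 and 91.3, 139 and 85.1 kb away in old replicates 1 to 3. From the Meis1 domain the distances were 213, 709 and 479 kb in young and 263, 2166 and 28.0 kb in old libraries. They were 1596, 339 and 27.9 kb in young and 246, 339 and 245 kb in old libraries for Gata2. For Nkx2-3 they were 228, 157 and 58.6 kb in young and 153, 152 and 148 kb in old libraries, on the lower-coordinate side in all 6. The closest approach was by an island of 2400 bp in old replicate 3 at Meis1 and by one of 1000 bp in young replicate 3 at Gata2. The median distance over the 4 domains was larger in every library than over the 14489 regions, or 14485 for young replicate 2. In young replicates 1 to 3 it was 597 beside 224, 248 beside 65.4 and 69.5 beside 39.2 kb. In old replicates 1 to 3 it was 199 beside 44.3, 246 beside 66.1 and 117 beside 37.6 kb. It was larger than over the other 96 longest regions in 5 of 6 libraries, the exception being young replicate 3, with 69.5 beside 92.6 kb. Young replicate 1 stood apart from the other H3K27me3 libraries, with 1.48% of those 14489 regions touched by an island, beside 12.5 to 15.3% in the others.

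H3K36me3 was present in all 4 windows, by length most in Meis1 and Gpr56 and least in Nkx2-3, and varied more between libraries of 1 age than between ages. The Meis1 window is the longest, at 160 kb. As a share of the window, Gpr56 was highest in every library but young replicate 4. In old replicate 6 the shares were 53.5% at Gpr56, 18.4% at Meis1 and 19.8% at Gata2, and in young replicate 6 they were 57.1, 30.7 and 16.7%. In the Gpr56 window it covered 0, 13133 and 31431 bp in young replicates 4, 5 and 6 and 12083, 17248 and 29430 bp in old replicates 4, 5 and 6. In the Meis1 window it covered 1529, 12769 and 49158 bp in young and 15245, 34089 and 29448 bp in old libraries. The values overlapped in both windows. In the Gata2 window they were 0, 3767 and 5847 bp in young and 2057, 3283 and 6931 bp in old libraries. In the Nkx2-3 window they were 0, 285 and 2280 bp in young and 0, 0 and 2000 bp in old libraries. Young replicate 6 or old replicate 6 was highest in every window, and young replicate 4 was lowest or tied for lowest.

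The age difference in H3K36me3 did not exceed the spread between libraries at any gene. At Gpr56 the mean length was 14855 ± 15786 bp for young and 19587 ± 8907 bp for old libraries (SD, n = 3 each, two-sided exact permutation p = 0.8). At Meis1 it was 21152 ± 24897 bp in young and 26261 ± 9818 bp in old (exact p = 0.8), at Gata2 3205 ± 2964 and 4090 ± 2535 bp (exact p = 0.8), and at Nkx2-3 855 ± 1242 and 667 ± 1155 bp (exact p = 0.7). These are 4 tests of 1 family, and the smallest p that 3 against 3 libraries allow is 0.1, so none could pass 0.05 before or after adjustment. Across the genome limma called 0 of 45189 H3K36me3 regions (0% called), with 257 at an unadjusted p under 0.05, 252 of them longer in old. Without young replicate 4 this turned to 184 of 898, and without young replicate 6 it was 9626 of 9628.

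Young replicate 4 stood apart in this mark. Its list held 6399 peaks over 5.90 Mb, beside 39362 to 84437 peaks over 41.6 to 138 Mb in the others, and only 2 of its peaks lay in the windows, both at Meis1. Without it the sign at Gpr56, Meis1 and Gata2 turned: young then had 22282 ± 12939 bp at Gpr56 (n = 2, old minus young -2695 bp, exact permutation p = 0.7), 30964 ± 25731 bp at Meis1 (-4703 bp, exact p = 1) and 4807 ± 1471 bp at Gata2 (-717 bp, exact p = 0.7). Nkx2-3 stayed lower in old (-616 bp, exact p = 0.5). Within title number 18, shared by young replicate 5 and old replicate 6, the old library was higher in all 4 windows (13133 and 29430 bp at Gpr56, 12769 and 29448 bp at Meis1, 3767 and 6931 bp at Gata2, 285 and 2000 bp at Nkx2-3). The young library of that pair had the narrowest H3K36me3 peaks of all lists, with a median width of 354 bp beside 794 to 1437 bp. Within title number 16, shared by young replicate 4 and old replicate 4, the old library was higher at Gpr56, Meis1 and Gata2 and both were at 0 bp at Nkx2-3. Without young replicate 4, the median log2 difference over all H3K36me3 regions fell from 0.81 to 0.06.

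**Figure D4:**
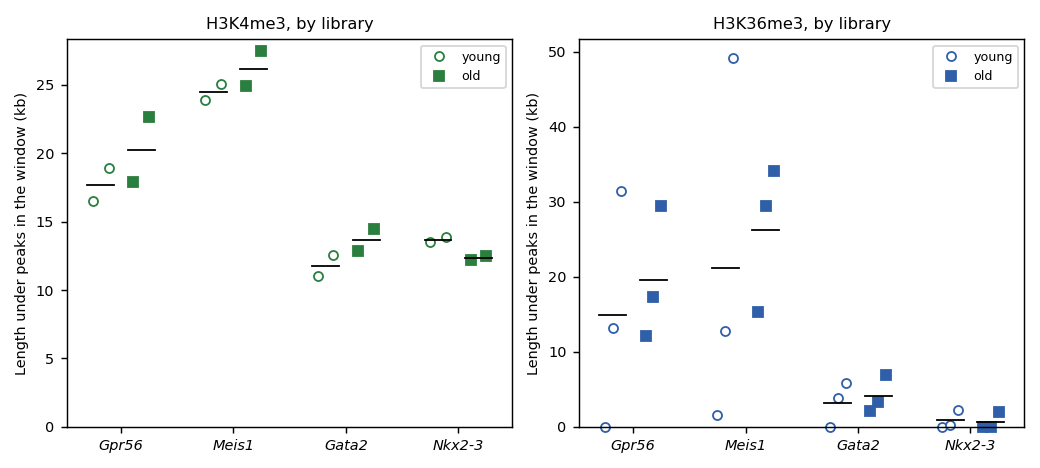
Length under peaks in each window (y axis, kb) for H3K4me3 (left) and H3K36me3 (right), with open circles for young and filled squares for old libraries and a line at each group mean. H3K36me3 libraries of the same age spread from 0 to 31431 bp at Gpr56, more than the means differ.

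The side of the H3K4me3 domain with more H3K36me3 was the same in every library with peaks in the domain, and it followed the strand of the gene. Each domain was divided at its centre into a lower- and a higher-coordinate side. In RefSeq, Gpr56, Gata2 and Nkx2-3 lie on the plus strand and Meis1 on the minus strand. H3K36me3 covered more of the higher-coordinate side in 5 of 5 libraries with peaks in the Gpr56 domain, 5 of 5 at Gata2 and 3 of 3 at Nkx2-3. At Meis1 it covered more of the lower-coordinate side in 4 of 4 libraries. In each case this is the side toward which the gene is transcribed. The sides were close in old replicate 5 at Meis1 (2284 beside 1973 bp). At Nkx2-3, young replicate 5 and old replicate 6 counted through peaks near the lowest score of their lists (84.47 and 80.25).

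At Gpr56, H3K36me3 covered 0, 13.8 and 46.3% of the lower-coordinate side in young replicates 4 to 6 and 0, 0 and 33.6% in old ones. On the higher-coordinate side it covered 0, 21.1 and 89.7% in young and 15.6, 54.7 and 93.0% in old libraries. The mark went on past the domain, over 0, 37.5 and 70.9% of the remaining 26.2 kb of the window in young and 40.4, 46.1 and 66.6% in old libraries. No library held any before the domain. The largest block beyond the domain, chr8:97525768-97536399 (10632 bp), began 7001 bp past its edge and was held by 5 of 6 libraries. It covered 0, 7803 and 10499 bp in young and 8368, 9490 and 10469 bp in old libraries (limma log2 difference 1.90, SE 1.55, adjusted p = 0.911), and young replicate 4 was the library without it. Without that library the log2 difference was 0.05.

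At Meis1 the mark ran the other way, into the lower coordinates. It covered 0, 17.3 and 55.4% of the lower-coordinate side of the domain in young and 0, 30.0 and 46.3% in old libraries, beside 0, 8.84 and 34.6% and 0, 26.0 and 23.3% of the other side. Across the 137 kb between the start of the window and the domain it covered 1.12, 7.87 and 30.9% in young and 11.1, 21.8 and 17.6% in old libraries, and it was at 0 beyond the domain on the other side in all 6. This long stretch was broken into many small regions, which gave Meis1 123 of the 196 H3K36me3 peaks of the 4 windows. The largest, chr11:18885197-18898334 (13138 bp), lay 8617 bp from the domain and was the 1 H3K36me3 region in the windows that all 6 libraries held. It covered 868, 4448 and 11528 bp in young and 7832, 11000 and 7201 bp in old libraries (limma log2 difference 1.17, SE 1.56, adjusted p = 0.939), and without young replicate 4 the log2 difference was 0.24.

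At Gata2, H3K36me3 left the lower-coordinate side free in all 6 libraries. On the other side it covered 0, 39.9 and 62.2% in young and 31.1, 12.9 and 68.8% in old libraries, and past the domain 0, 11.4 and 17.6% in young and 0, 24.6 and 24.1% in old libraries. It formed 2 regions, chr6:88149330-88153023 inside the domain and chr6:88154267-88157549 across its edge, each held by 4 libraries (limma log2 differences -0.05, SE 1.45, and 0.55, SE 1.45, both with an adjusted p of 1.00). At Nkx2-3 it formed a single region, chr19:43688447-43691062, wholly inside the domain and held by 3 of 6 libraries. It covered 0, 4.93 and 39.4% of the higher-coordinate side in young and 0, 0 and 34.6% in old libraries, and both flanks were at 0 in all 6.

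**Figure D5:**
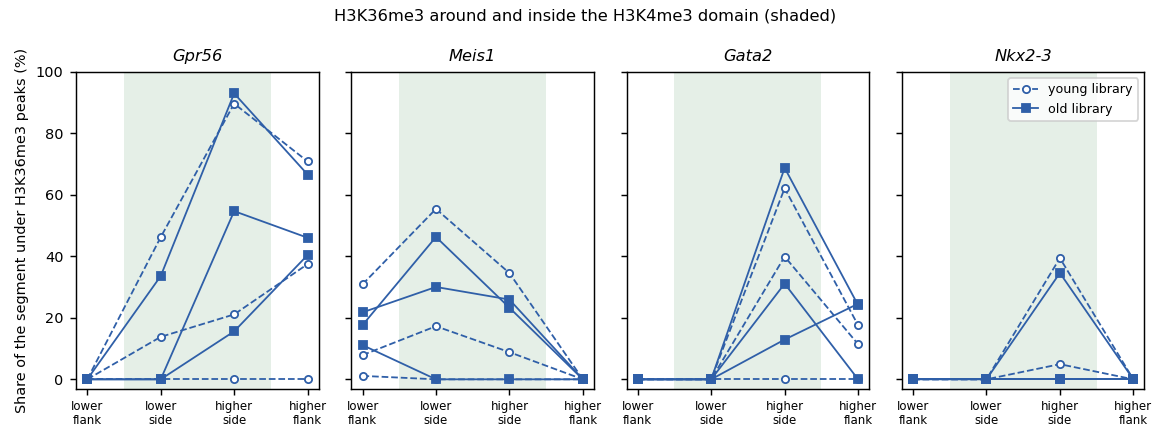
Share of each segment under H3K36me3 peaks (y axis, percent) in the window before the H3K4me3 domain, on the lower- and higher-coordinate side of the domain (shaded) and in the window past it, with 1 line per library. The higher-coordinate side is above the lower one at Gpr56, Gata2 and Nkx2-3, and the reverse holds at Meis1, in every library with peaks in the domain.

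Overlap of the 2 active marks was a point where the 4 domains can be set beside other H3K4me3 regions, since the rule that chose them did not use H3K36me3. An H3K36me3 peak touched the domain by at least 1 bp in at least 3 of the 5 libraries other than young replicate 4 at all 4 genes, whereas 2.91% of the 14489 regions held by all H3K4me3 libraries were so touched. Among the other 96 longest regions the share was 36.5% (35 regions). At Nkx2-3 the peaks of young replicate 5 and old replicate 6 scored 84.47 and 80.25. The lowest scores of those lists were 80.01 and 80. With only peaks at or above the median score of their list, these 2 libraries had 0 bp in the Nkx2-3 window. Young replicate 6 then had 1553 bp there, so Nkx2-3 fell short of 3 libraries. Length differs between these sets, with a median of 14213 bp for the 4 domains, 7062 bp for the other 96 and 2023 bp for all, and a longer region has more bases that can be touched. Where at least 50% of a region had to be covered in at least 3 of those 5 libraries, 0 of the 4 domains qualified. The share was 4.17% of the other 96. Only the Gpr56 domain passed 50% in any library, with 68.0% in young replicate 6 and 63.3% in old replicate 6. The H3K36me3 list in which the largest share of the 14489 regions was touched was young replicate 6, with 6.69%, and that list touched all 4 domains.

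The 4 domains also differ in how far they reach in proportion to their genes. By RefSeq gene lengths on GRCm38.p6, the domain is 0.479 times as long as the 39.5 kb Gpr56 gene, 0.109 times the 139 kb Meis1 gene, 1.01 times the 13.1 kb Gata2 gene and 3.24 times the 3.57 kb Nkx2-3 gene. Only lengths are compared here, since the gene models are on another build. Nkx2-3, the gene with the shortest body, had no H3K36me3 in its window outside the domain. The 2 annotated promoters lie 7290 bp apart at Gpr56 and 4773 bp apart at Gata2, in both cases less than the length of the domain, and Meis1 and Nkx2-3 have 1 listed promoter each. Stability over libraries did not set the 4 apart from regions of the next lengths: the share of a domain under peaks of all 4 H3K4me3 libraries had a median of 85.1% (76.0% at Gata2 to 94.7% at Meis1), beside 81.8% (43.3 to 96.8%) for the other 96.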

How the data were processed

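Histone methylation was mapped by ChIP-seq in 16 libraries of sorted stem cells. The authors deposited 1 peak list per library. The submitters' processing notes name CASAVA 1.4, SICER, MACS and build mm9. What aligner, thresholds and controls were used, and at which depth, is not given in the sources used here, so counting error has no interval. Each list gives bounds and a score per peak, a value the authors deposited without a unit. H3K27me3 bounds lie on SICER's 200 bp grid.

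The 4 genes, windows, motifs and tests were chosen with earlier results of these data known. Peaks were clipped to the windows and their length summed. All peaks of a mark that shared 1 bp or abutted were merged, and regions covered in at least 2 libraries were tested with limma 3.58.1 in R 4.3.3 (trend, empirical Bayes) on log2(bp covered + 200), old minus young, with Benjamini-Hochberg adjustment at 0.05. This step was also run on simulated data. Their noise was set beforehand and not taken from these libraries, so that run gives no power or error rate for them. Length in a window was compared with exact two-sided permutation tests over libraries for H3K36me3 and H3K27me3. The replicate number was no covariate. Every region in a window held by at least 2 libraries was eligible to be named. Other steps used Python 3.11.15, numpy 2.4.6, pandas 2.3.3 and scipy 1.17.1. Alternatives were another pseudocount (1000 bp), no filter, only peaks at or above the median score of their list, gaps of up to 500 bp merged, a replicate block, scaling to total length, a 50% overlap, and each library left out. Annotation of mm9, other stem cell genes and cell type markers were not analysed here.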

Additional observations from a re-analysis of the deposited data

How the results depend on the processing

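The replicate block left the count of called regions at 0 for all 3 marks, as did another pseudocount, no filter, a stricter score and wider merging. Samples with the same replicate number deviated together little (correlations 0.00 in H3K4me3, 0.02 to 0.14 in H3K27me3 and -0.03 to 0.06 in H3K36me3), so the block is given here only. Samples with different numbers had -0.15 to 0.05 in H3K27me3 and -0.06 to 0.04 in H3K36me3. Samples of 1 replicate number do not always share a title number, and a block by title number was not tested. Leaving out 1 library gave 16 to 94 called H3K4me3 regions (60 without young replicate 7, 16 without young replicate 8, 94 without old replicate 7 and 16 without old replicate 8), 0 to 2766 H3K27me3 regions (2766 without old replicate 2, otherwise 0) and 0 H3K36me3 regions. With 1 H3K4me3 library left at an age, that library is assumed to vary like the other age. With 1 library left out, old minus young H3K4me3 in the windows ranged from 169.5 to 4923.5 bp at Gpr56, 424 to 3032 bp at Meis1, 1058.5 to 2705.5 bp at Gata2 and -1516 to -1179 bp at Nkx2-3. At Meis1 it fell from 1728 to 67.5 bp in the domain alone. At Nkx2-3 it was -242.5 bp in the domain alone and with a stricter score, and -1973 bp when scaled to total length. H3K36me3 differences turned negative with that scaling at Meis1 (-1688 bp) and Gata2 (-32.0 bp). With 1 library left out they ranged from -2695 to 13021 bp at Gpr56 (-189 bp without old replicate 6), -4703 to 19112 bp at Meis1, -717 to 2207 bp at Gata2 (-535 bp without old replicate 6) and -855 to 524 bp at Nkx2-3 (145 bp without old replicate 4 or 5). The log2 difference of the Gpr56 H3K4me3 domain ranged from -0.055 to 0.13 with 1 library left out and that of the Meis1 domain from -0.025 to 0.039, with -0.00051 without old replicate 8. With 50% overlap required in at least 3 of the 5 libraries other than young replicate 4, H3K36me3 held 0 of the 4 domains. The share was 4.17% of the other 96. In 96.9% of the other 96, no H3K27me3 library covered at least 50% of the region. The causes were not tested, except that a library left out removes samples. Of the recomputed values for main results, 80 counted as kept, 12 as moved and 10 changed sign. For H3K4me3 length in the windows, moved means by more than the spread between libraries. For H3K36me3 length there, only a change of sign was counted, whatever the size of the move. The 80 include 8 values of H3K27me3 length in the windows, which were 0 bp throughout and could not differ. For single regions 55 kept their call and 3 changed sign. Read depth is unknown, and a region short of the calling threshold cannot be told from one without the mark.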
